A study of Mus musculus with 16 samples.

Results

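The genes described here are 10 regulators and effectors of mechanistic target of rapamycin complex 1 (mTORC1): Sesn1, Sesn2, Sesn3, Ddit4, Ddit4l, Deptor, Mtor, Rragd, Eif4ebp1 and Eif4ebp2. They were taken by gene symbol from a given list, and all 10 are among the 19108 symbols of the count files and among the 13666 genes with enough counts to test. The title of the study names its question, how protein homeostasis in the cytosol adapts to mitochondrial stress and how this relates to muscle wasting. Quadriceps RNA came from 16 C57BL/6 mice aged 6 months: 4 wild-type (WT) females, 4 WT males, and 4 females and 4 males labelled ANT1(Tg)/+, called Tg below. Tg mice overexpress Ant1 (now Slc25a4), the carrier that exchanges ADP and ATP across the inner mitochondrial membrane. All animals ate regular chow, and controls were littermates only where possible. The sources used here do not name the promoter of the transgene or the number of founder lines.

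mTORC1 is a kinase complex that sits on the lysosome and turns on protein synthesis when amino acids, energy and growth factors are plentiful. Several proteins act as brakes on it: the sestrins bind the GATOR2 complex and keep the Rag GTPases from recruiting mTORC1, REDD1 and its paralogue act through the TSC complex, and DEPTOR binds the kinase itself. 4E-BPs lie downstream: when mTORC1 is inactive they bind the cap-binding protein eIF4E and block initiation of translation, and mTORC1 releases that block by phosphorylating them. In muscle this pathway sets the balance between growth and atrophy, and much of its control is by phosphorylation and protein binding, which RNA counts do not show.

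In build mm10 (GENCODE M21), Sesn2 lies on chromosome 4 from 132492032 to 132510501 (minus strand), Sesn1 on chromosome 10 from 41809935 to 41908424 and Sesn3 on chromosome 9 from 14275067 to 14333101. Ddit4 is on chromosome 10 from 59949669 to 59951834, Ddit4l on chromosome 3 from 137621612 to 137628333, Deptor on chromosome 15 from 55112317 to 55259271 and Mtor on chromosome 4 from 148448611 to 148557683. Rragd occupies chromosome 4 from 32983037 to 33022180, Eif4ebp1 chromosome 8 from 27260329 to 27276674 and Eif4ebp2 chromosome 10 from 61428491 to 61452661. Each value below rests on the deposited value of a gene symbol, taken as an estimated count of reads. How the reads were counted is not named. Mtor contains Angptl7 (3.35 to 44.5 CPM across libraries) on the opposite strand, and Deptor overlaps Gm9920 there. The library kit kept the strand, but whether the counting used it is not given in the sources used here, so reads of these genes may be mixed with those of Mtor and Deptor.

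Upstream sequences of RefSeq (GRCm38.p6) were at hand for 8 of the 10 members, all but Deptor and Eif4ebp1. The 250 bases before a start were searched on both strands for 5 motifs: the C/EBP-ATF response element bound by ATF4 (TGATGNAAN), the E-box of lysosomal genes bound by TFEB (CACGTG), the CCAAT box (CCAAT), a forkhead motif (GTAAACA) and the cAMP response element (TGACGTCA). Only the CCAAT box was found, in all 3 sestrins, Ddit4 and Mtor, and 33.8% of all 32851 such windows hold it. The shares of all windows with the other motifs were 3.44%, 6.02%, 3.17% and 1.55% in the order C/EBP-ATF, E-box, forkhead and cAMP. Windows are printed below for the sestrins and for Ddit4l and Rragd, the other genes that changed in RNA level and had one. Whether the box goes with the RNA results given below was not tested, and Eif4ebp1, which rose, had no window. All sestrins hold the box, and of them Sesn2 rose, Sesn1 fell and Sesn3 was not called. Ddit4l and Rragd, which fell, lack it, and so does Eif4ebp2, which was not called. Capitals mark CCAAT boxes, here all on the opposite strand and so read ATTGG. Sesn1 has 2 starts in RefSeq, at the first and second window named for it. The windows of Sesn1, Sesn3 and Ddit4l lie inside the GENCODE coordinates given above. RefSeq and GENCODE starts thus differ for these genes, and which start the muscle uses was not examined.
Sesn2, chr4:132510457-132510706, minus strand: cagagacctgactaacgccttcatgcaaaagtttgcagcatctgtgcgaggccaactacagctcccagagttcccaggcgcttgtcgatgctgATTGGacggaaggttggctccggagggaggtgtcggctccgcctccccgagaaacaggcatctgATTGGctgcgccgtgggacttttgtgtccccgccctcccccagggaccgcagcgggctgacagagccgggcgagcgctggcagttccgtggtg
Sesn1 first start, chr10:41810324-41810573, plus strand: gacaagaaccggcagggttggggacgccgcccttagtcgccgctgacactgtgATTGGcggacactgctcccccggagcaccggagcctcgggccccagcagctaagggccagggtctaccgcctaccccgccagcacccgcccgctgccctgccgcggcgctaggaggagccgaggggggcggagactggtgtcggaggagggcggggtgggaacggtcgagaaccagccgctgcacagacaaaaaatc
Sesn1 second start, chr10:41887189-41887438, plus strand: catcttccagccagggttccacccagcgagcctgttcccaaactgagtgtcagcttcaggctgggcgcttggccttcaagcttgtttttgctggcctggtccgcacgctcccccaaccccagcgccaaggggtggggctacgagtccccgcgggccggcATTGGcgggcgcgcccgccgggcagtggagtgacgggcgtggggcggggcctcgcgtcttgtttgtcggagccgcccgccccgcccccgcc
Sesn3, chr9:14276051-14276300, plus strand: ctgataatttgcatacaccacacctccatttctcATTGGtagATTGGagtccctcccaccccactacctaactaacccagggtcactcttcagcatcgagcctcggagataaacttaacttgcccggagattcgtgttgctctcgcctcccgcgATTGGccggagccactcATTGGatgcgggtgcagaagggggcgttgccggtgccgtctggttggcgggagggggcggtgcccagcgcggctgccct
Ddit4l, chr3:137623422-137623671, plus strand: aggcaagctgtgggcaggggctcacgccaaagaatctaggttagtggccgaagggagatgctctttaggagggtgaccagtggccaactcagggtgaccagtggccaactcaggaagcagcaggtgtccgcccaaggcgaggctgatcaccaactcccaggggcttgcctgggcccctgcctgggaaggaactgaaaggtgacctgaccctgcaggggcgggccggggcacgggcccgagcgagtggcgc
Rragd, chr4:32982748-32982997, plus strand: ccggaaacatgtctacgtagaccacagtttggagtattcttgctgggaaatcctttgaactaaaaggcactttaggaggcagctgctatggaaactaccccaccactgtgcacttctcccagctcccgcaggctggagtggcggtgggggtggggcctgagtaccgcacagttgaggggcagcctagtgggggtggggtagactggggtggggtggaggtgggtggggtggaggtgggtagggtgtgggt
Sesn2 holds the box at 157 and 93 bases before its start, the Sesn1 windows at 197 and at 91 bases, and Sesn3 at 216, 208, 96 and 79 bases. A match of letters is a description of the sequence and was not tested for binding.

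Library totals were 17435895 to 30680324 counts, and levels are given in CPM, the usual depth-scaled unit (counts relative to the TMM-scaled total of the library). Slc25a4, the transgene product, ranged from 2792 to 3919 CPM in WT and from 8507 to 11044 CPM in Tg libraries, so all 16 libraries matched their genotype label. All 8 skeletal muscle fibre markers were detected in every library, with a summed level of 130370 to 214612 CPM. The summed level of 8 adipocyte markers ranged from 175 to 3238 CPM in WT and from 176 to 1335 CPM in Tg. None of the 8 was at 0 in any library, and 3 WT libraries held the highest sums: WT male 1 (3238 CPM), WT female 2 (3191 CPM) and WT female 1 (2483 CPM). Summed markers of endothelial cells were 180 to 266 CPM in WT and 212 to 266 CPM in Tg, of macrophages 35.9 to 123 and 20.2 to 99.6 CPM, of fibroblasts 520 to 1028 and 357 to 1076 CPM, and of Schwann cells 61.2 to 156 and 76.4 to 120 CPM. The most abundant marker of each list did not pass for adipocytes (Fabp4, -0.80, adjusted p = 0.368), endothelial cells (Cdh5, 0.12, 0.331), macrophages (Csf1r, -0.48, 0.238), fibroblasts (Dcn, -0.30, 0.27) or Schwann cells (Pmp22, -0.08, 0.744). Without the 3 WT libraries richest in adipocyte markers, Cdh5 was called (0.30, adjusted p = 0.00157), and Fabp4 had a value of 0.82. Among 8 fibre markers 50% were called, against 30.4% of all tested genes. Myh1 (1.05) and Des (0.30) rose, and Myh4 fell by 0.53 and Tnnt3 by 0.33. These are bulk samples, in which fewer cells of a type and less RNA per cell cannot be told apart.

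The main comparison asked which of the 10 genes differed between Tg and WT muscle, averaged over the sexes. The members moved in both directions: Sesn2, a stress-induced sestrin, and Eif4ebp1, the gene of 4E-BP1, rose, while Sesn1, Ddit4l (REDD2) and Rragd fell. Sesn3, Ddit4 (REDD1), Deptor, Mtor and Eif4ebp2 did not pass the test. That makes 5 of 10 called at an adjusted p under 0.05 (edgeR), against 30.4% of all tested genes. By direction, 2 members were higher, against 17.2% of all genes, and 3 were lower, against 13.3%. The median log2 difference was 0.10 over the members and -0.01 over all tested genes. In 3 members (Sesn2, Eif4ebp1 and Rragd) no Tg library overlapped any WT library, which held for 7.92% of tested genes (5.23% with Tg above and 2.69% with Tg below). The same 5 members were called under each of the 10 alternative analyses other than leaving out single libraries.

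**Figure D1:**
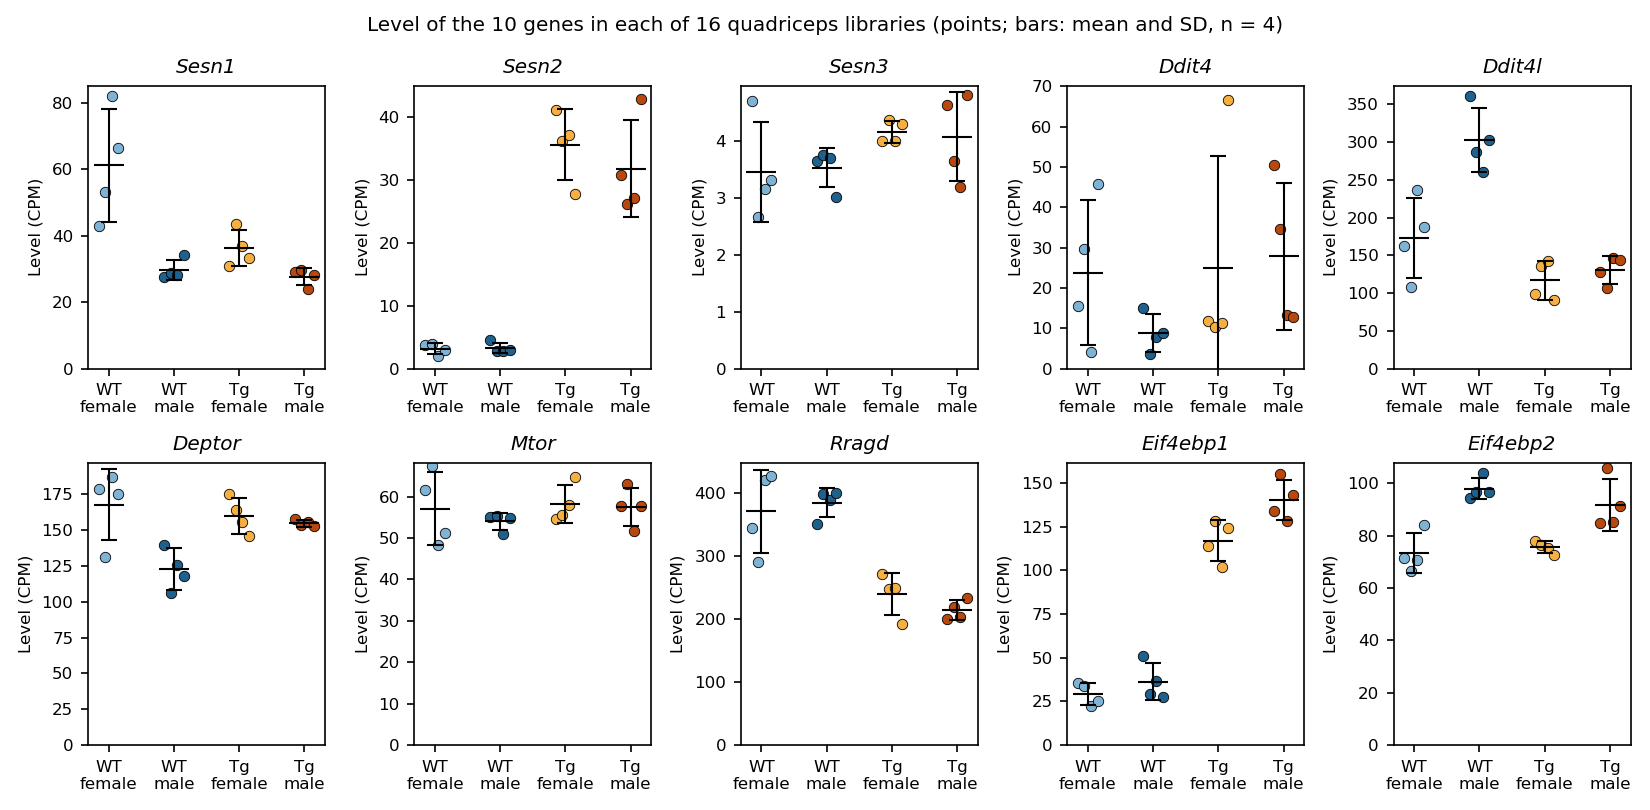
Level of each of the 10 genes (vertical axes, CPM, linear and starting at 0) in the 4 groups of 4 libraries set by genotype and sex; points are libraries, and bars are the mean and SD of a group (the lower SD bar of Ddit4 in Tg females is clipped at 0). Sesn2 and Eif4ebp1 were higher and Rragd lower in all Tg than in all WT libraries, while Ddit4 spread widely within groups.

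Among the sestrins, leucine- and stress-responsive inhibitors of mTORC1, Sesn2 was scarce in WT muscle. Its level was 3.72, 3.85, 1.97 and 2.87 CPM in the WT females and 4.55, 2.81, 2.77 and 2.94 CPM in the WT males. In Tg muscle it was 41.1, 36.1, 37.1 and 27.7 CPM in females and 30.7, 26.1, 27.0 and 42.8 CPM in males. The lowest Tg library was thus above the highest WT library by a wide gap, and the gap was present in each sex. On the log2 scale the increase was 3.39 (SE 0.16, adjusted p = 5.48e-10), with 3.50 (SE 0.23) in females and 3.28 (SE 0.23) in males. Behind these levels stood estimated counts of 37 to 111 per WT library and 617 to 1132 per Tg library.

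Sesn1, the sestrin best known as a p53 and FoxO target and the most abundant one in WT muscle, went the other way in females. WT females had 42.9, 53.2, 82.2 and 66.5 CPM, and Tg females 31, 43.5, 36.8 and 33.3 CPM. Levels in males were 27.6, 28.7, 28.3 and 34.2 CPM in WT and 29.0, 29.6, 24.0 and 28.3 CPM in Tg. WT females stood above both male groups without overlap, whereas Tg females overlapped WT females by 1 library. Averaged over the sexes Sesn1 fell by 0.43 on the log2 scale (SE 0.11, adjusted p = 0.00953), with a fall of 0.76 in females (SE 0.16, adjusted p = 0.0045) and a value of -0.10 in males (SE 0.16, adjusted p = 0.762). The test of the difference between the sexes gave 0.66 (SE 0.23, unadjusted p = 0.0112, adjusted p = 0.53), so a difference in the Sesn1 response between females and males was not called.

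Sesn3, the remaining sestrin, was low throughout. It ranged from 2.66 to 4.7 CPM in WT (median 3.48) and from 3.19 to 4.81 CPM in Tg (median 4.14), with overlapping groups. The log2 difference was 0.23 (95% interval -0.03 to 0.49, adjusted p = 0.171). It was called only without WT female 1, the highest WT library (0.33, adjusted p = 0.0361).

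The make-up of the sestrin transcripts also differed. Per kilobase of exon, which allows genes of different length to be compared, Sesn2 made up 8.43% ± 3.80 of the sestrin level in WT and 53.7% ± 5.30 in Tg (SD, n = 8 each). Its share was 8.82, 7.58, 2.65 and 4.65% in WT females and 15.4, 9.80, 9.78 and 8.78% in WT males, against 47.9 to 59.5% in Tg females and 49.5 to 62.4% in Tg males. The groups did not overlap, and the mean difference was 45.3 percentage points. The exact permutation p was 0.000408, two-sided and within sexes, the smallest p this design allows. Since the share contains Sesn2, which already separated the genotypes, this p adds no separate evidence. The summed level of the 3 sestrins was 16.5 ± 4.01 CPM per kb in WT females and 19.6 ± 2.11 in Tg females (SD, n = 4 each), with overlapping values. In males the sum was 8.63 ± 0.681 in WT and 16.3 ± 2.47 CPM per kb in Tg (SD, n = 4 each), without overlap (8.15 to 9.63 against 14 to 19.7).

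**Figure D2:**
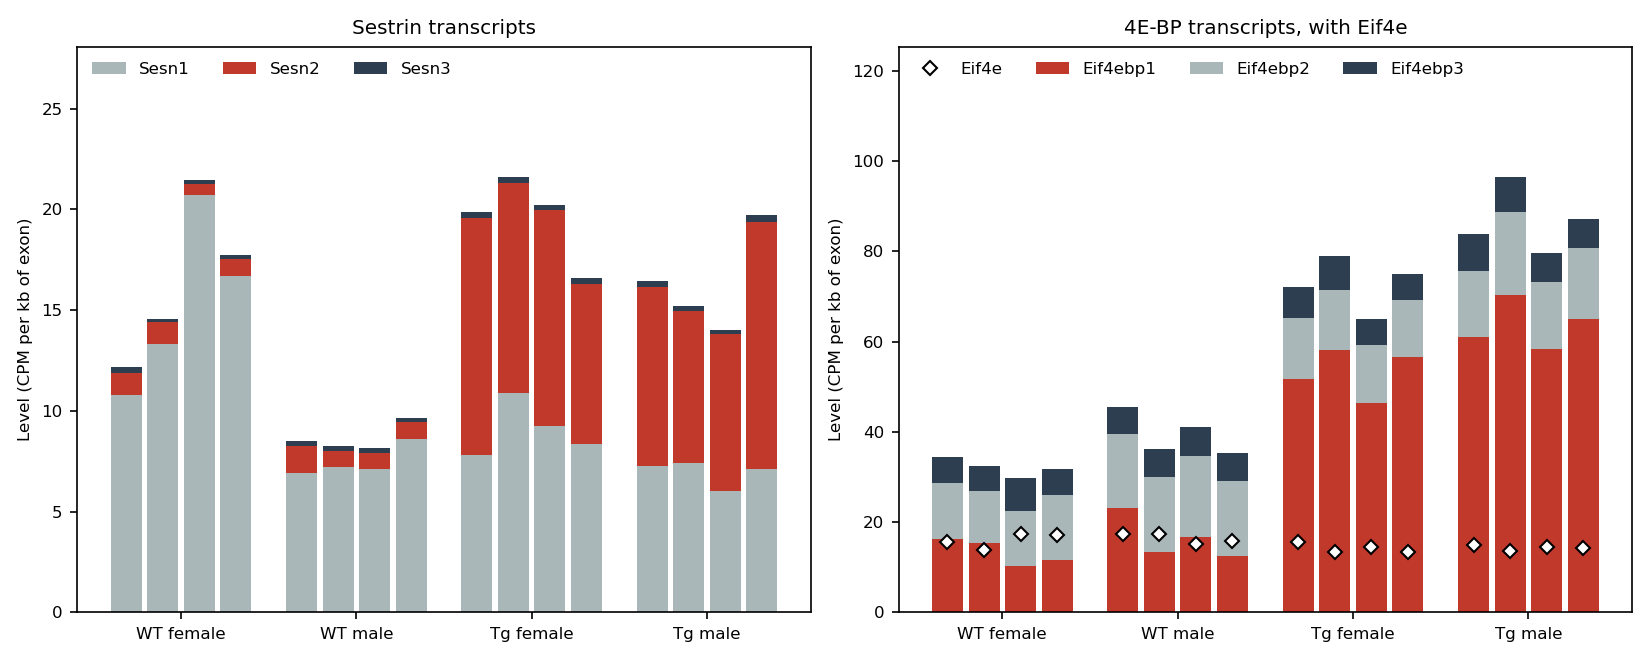
Stacked levels (vertical axes, CPM per kb of exon) of the 3 sestrin genes (left) and the 3 4E-BP genes (right) in each of the 16 libraries, grouped by genotype and sex, with Eif4e as diamonds on the right. Sesn2 made up 2.65 to 15.4% of the sestrin level in WT and 47.9 to 62.4% in Tg, and Eif4ebp1 34.4 to 50.9% and 71.3 to 75.5% of the 4E-BP level.

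The REDD paralogues differed in both level and spread. Ddit4l, also called REDD2 and a muscle-enriched inhibitor of mTORC1, was the member with the highest mean level per length in WT muscle. WT females had 162, 108, 236 and 187 CPM and WT males 361, 287, 261 and 303 CPM, and Tg females 98.4, 136, 142 and 91.0 CPM and Tg males 128, 107, 147 and 144 CPM. All WT males lay above all Tg males, whereas the females overlapped through 1 WT library, WT female 2 at 108 CPM. That library is also among the richest in adipocyte markers (3191 CPM), whose part in its Ddit4l level was not tested. Averaged over the sexes Ddit4l fell by 0.89 on the log2 scale (SE 0.15, adjusted p = 0.000299). The fall in males was 1.21 (SE 0.21, adjusted p = 0.000876). In females the value was -0.57 (SE 0.21, adjusted p = 0.0703), and without WT female 2 it was -0.74 (adjusted p = 0.00971). DESeq2 called the female difference with all libraries (-0.57, adjusted p = 0.0313). The difference between the sexes was -0.64 (SE 0.29, adjusted p = 0.656) and was not called.

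Ddit4, which encodes REDD1, the inhibitor induced by hypoxia, energy stress and glucocorticoids, varied more within groups than any other member. It was 15.4, 29.7, 4.22 and 45.7 CPM in WT females, 15.1, 3.72, 7.76 and 8.89 CPM in WT males, 11.9, 10.4, 11.2 and 66.6 CPM in Tg females and 50.4, 34.6, 13.3 and 12.9 CPM in Tg males. High and low libraries occurred in both genotypes, and 1 Tg female stood far above the other Tg females. The averaged log2 difference was 0.87 with a 95% interval from -0.36 to 2.09 (adjusted p = 0.278), so neither a rise of 4-fold nor a small fall was outside the interval. The value was 0.08 in females (interval -1.63 to 1.79) and 1.65 in males (interval -0.12 to 3.42, adjusted p = 0.202). Without Tg female 4 the female value was -1.08 (adjusted p = 0.315) and the averaged value 0.28. Summed adipocyte markers in the 3 highest Tg libraries for Ddit4 were 1335, 1257 and 1282 CPM, against 176 to 1005 CPM in the other 5. In WT the highest Ddit4 library, WT female 4, had 302 CPM of these markers, and their part in the Ddit4 levels was not tested.

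Within groups, Ddit4 moved together with 4 of 14 listed genes that glucocorticoids or fasting induce in muscle. Deviations of log2 CPM from the group mean were compared over the 16 libraries with those of these 14 genes, so 14 relations were computed. The list was drawn up with earlier results of these data known, and the adjusted p values allow only for these 14 relations. After Benjamini-Hochberg adjustment, 4 passed for both Pearson's r and Spearman's rho (permutation within groups). Cebpd, a transcription factor of the C/EBP family, had r = 0.89 (permutation p = 0.00045, adjusted 0.00315) and rho = 0.90 (permutation p = 0.00023, adjusted 0.00161). For Sgk1, the serum- and glucocorticoid-regulated kinase, r was 0.82 (permutation p = 5e-05, adjusted 0.0007) and rho 0.84 (p = 0.00014, adjusted 0.00161). Tsc22d3, the glucocorticoid-induced leucine zipper, had r = 0.73 (permutation p = 0.00487, adjusted 0.0227) and rho = 0.81 (p = 0.00192, adjusted 0.00896). Glul, the glutamine synthetase gene, had r = 0.68 (permutation p = 0.0119, adjusted 0.0415) and rho = 0.75 (p = 0.00706, adjusted 0.0247). Without the 2 libraries farthest from the median of Ddit4, WT female 3 and Tg female 4, r was 0.89, 0.79, 0.73 and 0.72 for Cebpd, Sgk1, Tsc22d3 and Glul. The other 10 relations did not pass, with r from -0.37 for Fbxo32 through 0.06 for Trim63 and 0.19 for Mt2 to 0.65 for Mt1. The share of all tested genes that follow Ddit4 as closely was not computed, so 4 of 14 cannot be set against a background. No label names a batch, collection hour or fasting state, so these could not be examined.

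**Figure D3:**
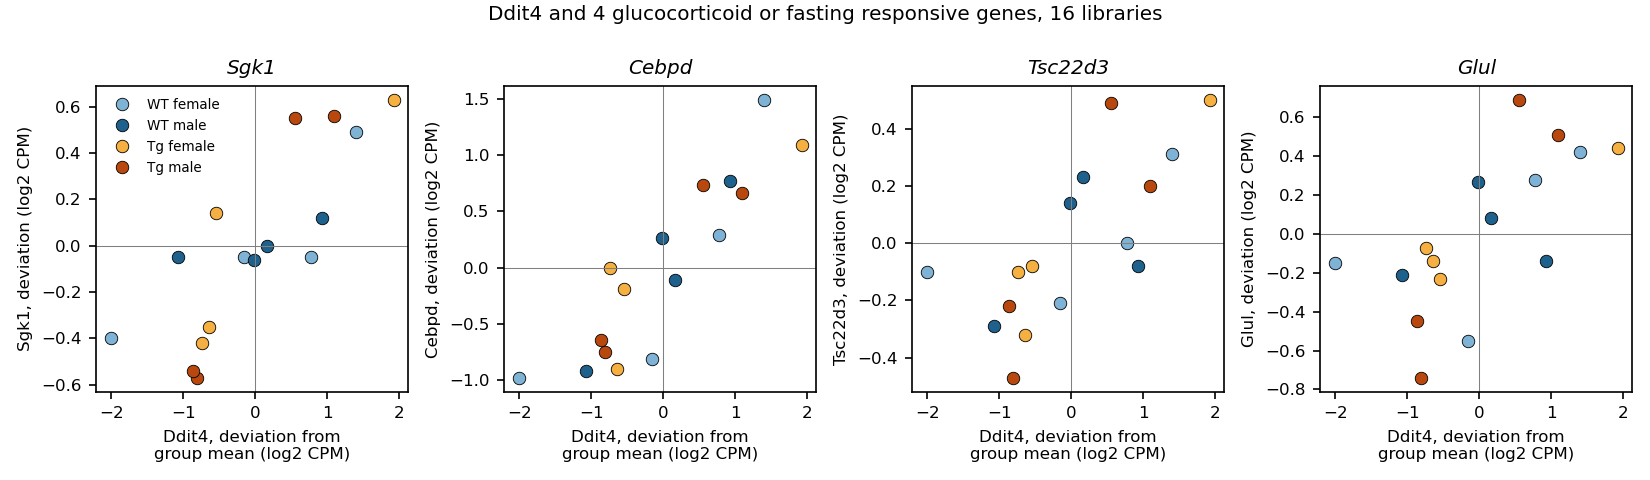
Deviation from the group mean (log2 CPM) of Ddit4 (horizontal axes) against that of Sgk1, Cebpd, Tsc22d3 and Glul (vertical axes), with 1 point per library coloured by group. Libraries high in Ddit4 for their group tended to be high in these genes (Pearson's r 0.82, 0.89, 0.73 and 0.68, n = 16). Exceptions include WT male 1 (Ddit4 0.93, Tsc22d3 -0.08, Glul -0.14) and WT female 2 (Ddit4 0.78, Sgk1 -0.05).

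Deptor and Mtor, the inhibitory subunit and the kinase of the complex, moved little. Deptor was 131 to 187 CPM in WT females and 146 to 175 CPM in Tg females, which overlapped. WT males had 140, 106, 126 and 118 CPM and Tg males 158, 154, 156 and 153 CPM, without overlap. The averaged log2 difference was 0.14 (95% interval -0.02 to 0.29, adjusted p = 0.178). In males it rose by 0.34 (SE 0.10, adjusted p = 0.0316), a call lost when any 1 of 7 libraries was left out (WT male 2, 3 or 4 or any Tg male, adjusted p between 0.0553 and 0.107) or with RLE factors (0.31, adjusted p = 0.05). Mtor was 48.3 to 67.3 CPM in WT and 51.8 to 64.8 CPM in Tg, with a log2 difference of 0.06 (95% interval -0.09 to 0.20, adjusted p = 0.55). The interval places any averaged Mtor change under 0.20 on the log2 scale in this fit.

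Rragd encodes RagD, which pairs with RagA or RagB to bring mTORC1 to the lysosome, so it is an activating part rather than a brake. WT females had 345, 290, 421 and 427 CPM and WT males 351, 399, 389 and 400 CPM. Tg females had 271, 247, 250 and 192 CPM and Tg males 200, 219, 204 and 234 CPM. All Tg libraries lay below all WT libraries, which held for 2.69% of tested genes. Rragd fell by 0.74 on the log2 scale (SE 0.09, adjusted p = 9.34e-06), by 0.63 in females (SE 0.12) and by 0.85 in males (SE 0.12). Its partner-exchangeable paralogue Rragc had a log2 difference of -0.01 (SE 0.07, adjusted p = 0.953). Per kilobase of exon, RagD transcripts made up 87.6% ± 2.59 of Rragc plus Rragd in WT and 81.1% ± 2.57 in Tg (SD, n = 8 each). Tfeb, whose product is known to activate Rragd transcription, fell by 0.36 (SE 0.11, adjusted p = 0.0221). Tfe3 (0.18, adjusted p = 0.109) and Mitf (-0.18, adjusted p = 0.0571), also listed as regulators of members, did not pass. The part of these factors in the Rragd level was not tested.

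Downstream of the kinase, Eif4ebp1 rose in every Tg library. Its level was 35.7, 33.6, 22.4 and 25.3 CPM in WT females, 50.9, 29.4, 36.8 and 27.5 CPM in WT males, 114, 128, 102 and 124 CPM in Tg females and 134, 155, 128 and 143 CPM in Tg males. The highest WT library, WT male 1, was at less than the lowest Tg library. On the log2 scale Eif4ebp1 rose by 1.97 (SE 0.13, adjusted p = 1.85e-08), a 3.93-fold increase, with 2.00 (SE 0.18) in females and 1.95 (SE 0.18) in males. Eif4ebp2, the paralogue that encodes 4E-BP2, was 66.6 to 84.3 CPM in WT females, 72.5 to 78.0 CPM in Tg females, 94.6 to 104 CPM in WT males and 84.8 to 106 CPM in Tg males. Its log2 difference was -0.03 with a 95% interval of -0.15 to 0.10 (adjusted p = 0.774), which lies wholly below the interval of Eif4ebp1 (1.70 to 2.25). Eif4ebp3, a scarcer gene of this family that overlaps the read-through gene AC115631.1 on the same strand, had a value of 0.17 (SE 0.09, adjusted p = 0.183).

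Eif4e, the cap-binding protein that 4E-BPs hold, fell slightly. It was 82.7 to 105 CPM in WT and 79.9 to 93.0 CPM in Tg, a fall of 0.19 on the log2 scale (SE 0.06, adjusted p = 0.0206). The summed transcripts of the 3 4E-BP genes per Eif4e transcript, each per kilobase of exon, were 2.22 ± 0.347 in WT and 5.62 ± 0.803 in Tg (SD, n = 8 each). In single libraries this ratio was 2.20, 2.35, 1.70 and 1.84 in WT females, 2.62, 2.07, 2.70 and 2.24 in WT males, 4.66, 5.92, 4.49 and 5.64 in Tg females and 5.59, 7.02, 5.49 and 6.12 in Tg males. No Tg library overlapped a WT library, and the difference was 1.34 on the log2 scale. The exact permutation p was 0.000408, two-sided and within sexes, again the smallest possible. Since the ratio contains Eif4ebp1, which already separated the genotypes, this p adds no separate evidence. Eif4ebp1 made up 41.2% ± 6.37 of the 4E-BP transcripts in WT and 73.2% ± 1.35 in Tg (SD, n = 8 each). These are ratios of RNA levels and do not give the ratio of the proteins or their phosphorylation.

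**Figure D4:**
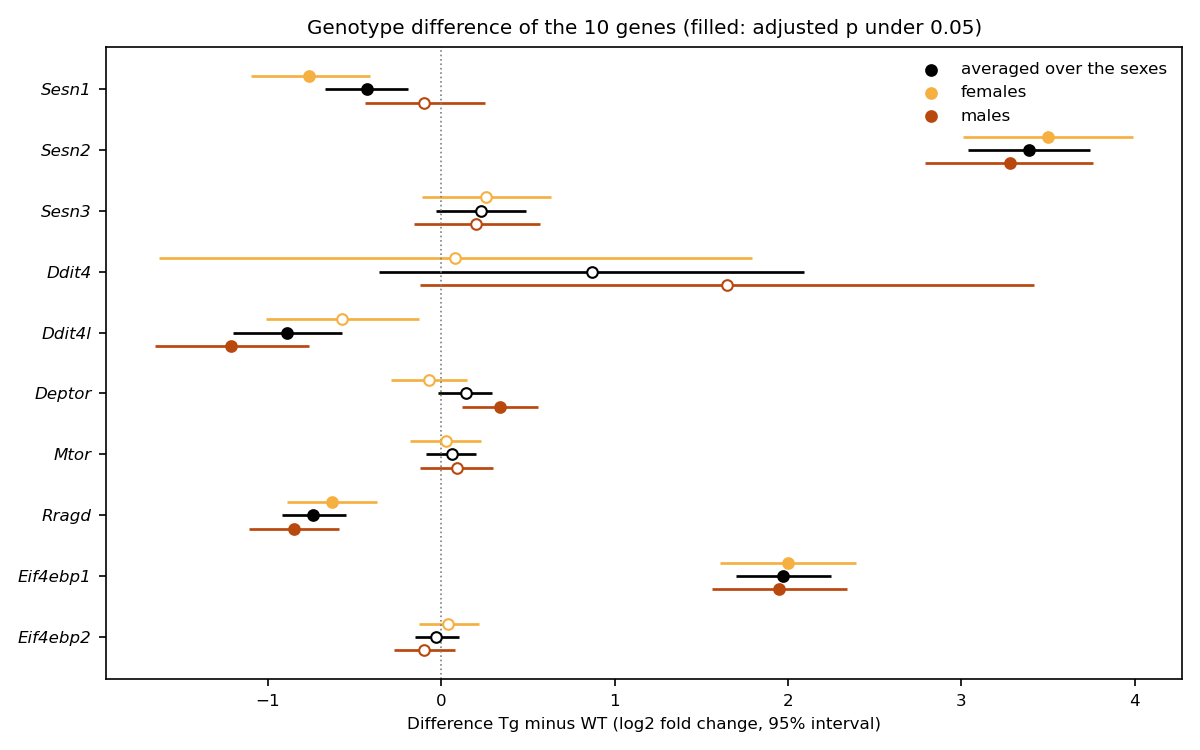
Tg minus WT difference of each gene (horizontal axis, log2 fold change with 95% interval) averaged over the sexes (black), in females (yellow) and in males (brown); filled points have an adjusted p under 0.05. Sesn2 (3.39) and Eif4ebp1 (1.97) lie to the right and Rragd (-0.74) and Ddit4l (-0.89) to the left, and the interval of Ddit4 is the widest (-0.36 to 2.09 for the average).

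Within each sex, 4 members were called in females, where 17.7% of all tested genes were called, and 5 in males, where 18.2% were. Sesn2, Rragd and Eif4ebp1 were called in both sexes, Sesn1 in females, and Ddit4l and Deptor in males. In females 2 members were higher and 2 lower, against 10.1% and 7.57% of all genes. In males 3 were higher and 2 lower, against 9.85% and 8.39%. The test of the difference between the sexes called 0 of the 10 members with edgeR, DESeq2 or limma-voom, while over all 13666 genes edgeR called 1 (0.00732%), limma-voom 1 and DESeq2 87. At an unadjusted p under 0.05 with edgeR, 3 members passed (Sesn1, Ddit4l and Deptor), against 7.43% of all genes. In WT muscle, 4 members differed between males and females, against 3.67% of all tested genes, with 2 higher in males (2.01% of genes) and 2 lower (1.65%). Sesn1 was lower in WT males by 1.04 on the log2 scale (SE 0.16, adjusted p = 0.00144) and Deptor by 0.45 (SE 0.10, adjusted p = 0.023). Ddit4l was higher in WT males by 0.81 (SE 0.21, adjusted p = 0.0424) and Eif4ebp2 by 0.42 (SE 0.08, adjusted p = 0.0075). The Ddit4l call was lost in most alternatives (0.55, adjusted p = 0.129, without WT female 2 and WT male 1). For Deptor it was lost without WT female 1 or 3 or WT male 2, 3 or 4 (adjusted p between 0.0508 and 0.0886). For Eif4ebp2 it was lost without the 3 libraries richest in adipocyte markers (0.37, adjusted p = 0.0861).

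Ordered by mean level per kilobase of exon in WT muscle, the members ran from Ddit4l (81.7 ± 28.3 CPM per kb) and Rragd (73.1 ± 8.88) through Deptor (16.3 ± 3.46), Eif4ebp1 (14.9 ± 4.06), Eif4ebp2 (14.8 ± 2.48), Sesn1 (11.4 ± 5.09) and Ddit4 (9.29 ± 8.28) to Mtor (5.50 ± 0.610), Sesn2 (0.917 ± 0.231) and Sesn3 (0.229 ± 0.0405; SD, n = 8 each). The ranges of neighbours overlapped except between Rragd and Deptor, Mtor and Sesn2, and Sesn2 and Sesn3. In Tg muscle Eif4ebp1 led (58.4 ± 7.44 CPM per kb), followed by Rragd (43.9 ± 5.38) and Ddit4l (42.6 ± 7.63), whose ranges overlapped with one another. Sesn2 stood at 9.66 ± 1.89, in a range that overlapped with that of Sesn1 (8.02 ± 1.5). Sesn3 remained the lowest at 0.270 ± 0.0346 (SD, n = 8 each).

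The other genes of the pathway were followed in 5 lists with 76 genes, all tested. Of these, 20 were higher and 13 lower in Tg, where 17.2% and 13.3% of all genes were. In all 43.4% were called, against 30.4% of all genes, with a median log2 difference of 0.04. Without the 3 libraries richest in adipocyte markers the numbers were 14 higher and 19 lower. Among 9 subunits and assembly factors of the mTOR complexes, 2 were higher and 1 lower (33.3% in all, near the 30.4% of all genes). Telo2, an assembly factor of the kinase, rose by 0.61 (SE 0.09, adjusted p = 5.62e-05), Akt1s1, the inhibitory subunit PRAS40, by 0.44 (SE 0.11, adjusted p = 0.00791) and Rictor, the defining subunit of mTORC2, fell by 0.57 (SE 0.10, adjusted p = 0.000622). The Akt1s1 call was lost without those 3 libraries (0.40, adjusted p = 0.0646), and its gene overlaps Tbc1d17 on the opposite strand. Of 12 Rag GTPases and lysosomal anchors, 4 were higher and 1 lower (41.7% in all). Rragb rose by 0.55 (SE 0.14), Lamtor3, of the Ragulator scaffold, by 0.29 (SE 0.06), Rraga by 0.23 (SE 0.06) and Lamtor5 by 0.19 (SE 0.06). The calls of Rraga (0.16, adjusted p = 0.0958) and Lamtor5 (0.13, adjusted p = 0.169) were lost without the 3 libraries.

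Of 15 genes of the GATOR and KICSTOR sensors, to which the sestrins signal, 4 were higher and 1 lower. That is 33.3% in all, near the 30.4% of all tested genes. Castor2, a partner of the arginine sensor CASTOR1, fell from 65.6 ± 7.35 to 34.9 ± 6.33 CPM (SD, n = 8 each), a fall of 0.91 on the log2 scale (SE 0.10, adjusted p = 5.06e-06) with no overlap between genotypes. Sec13 rose by 0.20 and Nprl3 by 0.19, and both calls were lost without the 3 libraries richest in adipocyte markers (adjusted p of 0.232 and 0.122). Of 16 genes of the TSC complex, Rheb and upstream kinases, 3 were higher and 3 lower (37.5% in all). Akt1 rose by 0.55 (SE 0.06, adjusted p = 2.04e-06) and Pdpk1, which phosphorylates it, by 0.25 (SE 0.05), while Akt2, the isoform of insulin signalling in muscle, fell by 0.36 (SE 0.07, adjusted p = 0.0013). Prkag3, the AMPK subunit of fast muscle, fell by 0.80 (SE 0.13, adjusted p = 0.000323).

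Of 24 effectors and cap-binding genes, 7 were higher and 7 lower (58.3% in all, against 30.4% of all tested genes). Grb10, an adaptor that mTORC1 phosphorylates and that damps insulin signalling, averaged 60.1 ± 18.9 CPM in WT and 133 ± 29.3 CPM in Tg (SD, n = 8 each), a 2.26-fold rise without overlap (adjusted p = 7.93e-07). Eef2, the elongation factor, rose by 0.52 (SE 0.07) and Rps6, the ribosomal protein phosphorylated by S6 kinase, by 0.39 (SE 0.05). Eif4e3, a relative of Eif4e, fell by 0.58 (SE 0.06, adjusted p = 1.77e-06). Most of the pathway genes lay near 0 in the plot of the 5 lists.

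**Figure D5:**
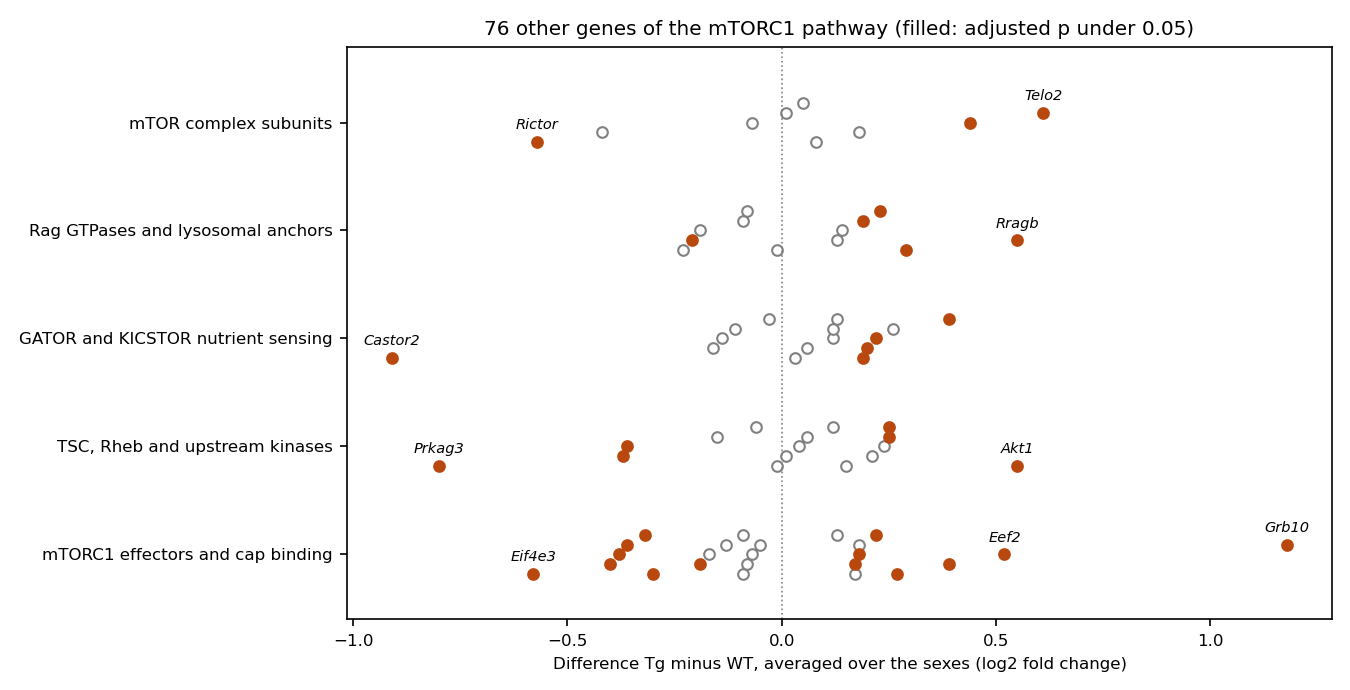
Sex-averaged difference between Tg and WT (horizontal axis, log2 fold change) of 76 other mTORC1 pathway genes in 5 lists, 1 point per gene; filled points have an adjusted p under 0.05. Grb10 (1.18) and Castor2 (-0.91) lie farthest from 0 on either side.

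Of 13 transcription factors known to regulate members, 3 were higher and 2 lower, 38.5% in all against 30.4% of all genes. Atf4, an activator of Sesn2, Eif4ebp1 and Ddit4 in the integrated stress response, rose from 150 ± 18.9 to 330 ± 17.1 CPM (SD, n = 8 each; log2 1.15, SE 0.05, adjusted p = 1.57e-10). The part of Atf4 in the levels of Sesn2, Eif4ebp1 and Ddit4 was not tested. Ddit3, the stress factor CHOP, rose 5.52-fold and Nfe2l2, the antioxidant factor NRF2, 1.28-fold. Nr3c1, the glucocorticoid receptor, fell by 0.41 (SE 0.11, adjusted p = 0.0103), and the other gene that fell was Tfeb. Foxo1 (-0.36, adjusted p = 0.164), Foxo3 (0.15, adjusted p = 0.412) and Trp53 (0.20, adjusted p = 0.126) did not pass. Of 14 glucocorticoid and fasting responsive muscle genes, 2 were higher and 7 lower (64.3% in all, against 30.4% of all genes), with a median log2 difference of -0.62 against -0.01 over all genes. Those that fell include the ubiquitin ligase gene Trim63 (from 615 ± 201 to 313 ± 86.5 CPM, SD, n = 8 each) and Fbxo32. Those that rose were the metallothionein genes Mt1 and Mt2, called in males (2.11 and 2.73) but not in females (0.56 and 0.70). Sgk1, Tsc22d3 and Glul, which followed Ddit4 within groups, fell by 0.73, 0.61 and 0.77 on average, in a direction opposite to the uncalled value of Ddit4 (0.87). In females their values were -0.95, -0.75 and -1.41, all called, and that of Ddit4 was 0.08, not called. In males none of these genes was called, with -0.50, -0.47 and -0.13, and 1.65 for Ddit4. The difference between the sexes in Sgk1, Tsc22d3, Glul, Mt1 and Mt2 is not given here.

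Genes with the most similar pattern over the 16 libraries were sought for the 5 called members, as those with the smallest root mean square difference between centred log2 CPM profiles among 10784 genes. For Sesn2 these were Atf5 (0.23), Slc1a4 (0.29) and Arhgef2 (0.33), against a median of 1.73 for all genes compared. Eif4ebp1 was nearest to Tbc1d31 (0.27), Srxn1 (0.31) and Extl1 (0.31), against a median of 1.05. Rragd was followed most closely by Lgr4 (0.09), Fermt2 (0.10) and Xrcc5 (0.10), against 0.47. Ddit4l had Ttll7 (0.24), Slc16a10 (0.26) and Xpr1 (0.27), against 0.65, and Sesn1 had Tiparp (0.23), Arhgap26 (0.25) and Gen1 (0.25), against 0.53. The genotype differences of these genes follow from how they were chosen and are not given as results.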

How the data were processed

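The deposited values are taken as estimated counts (expected counts) per gene symbol, since the labels give no unit, 93.53% of nonzero values lie within 0.01 of a whole number and totals differ between libraries. Per the submitters' processing notes the authors used bcl2fastq, cutadapt 1.2.1, TopHat2, Bowtie2 and build mm10. No label or header names the counting program, annotation or strand setting. Values were rounded and joined into 1 table of 16 libraries and 19108 symbols.

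Genes were filtered with filterByExpr (minimum count 10, minimum total 15), leaving 13666. edgeR 4.0.16 (R 4.3.3) was fitted with TMM factors (0.887 to 1.10), 1 mean per genotype and sex group, and robust quasi-likelihood F tests; calls required p under 0.05 after Benjamini-Hochberg adjustment over all tested genes. The biological coefficient of variation was 0.201. SE is the log2 difference divided by the square root of F. The fit was tested on simulated counts with known changes. Levels per kb use the union of GENCODE M21 exons. Pool shares and ratios were tested by exact permutation of genotype labels within sexes (4900 rearrangements). Alternatives were DESeq2 1.42.0, limma-voom (limma 3.58.1), RLE and upper quartile factors, 2 other filters, an additive model, an adipocyte marker covariate, and leaving out libraries. One alternative, without the 3 libraries highest in adipocyte markers, was chosen after seeing the data.

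The members, lists and rules were chosen with earlier results of these data known. The naming rule takes all members, up to 4 called genes with the smallest adjusted p per list (where none is called, the gene with the highest mean CPM), and 3 genes most like each called member, leaving out predicted genes and clones; 1 gene that the rule takes is not reported here. Of the marker lists these were Fabp4, Cdh5, Csf1r, Dcn and Pmp22, none called, and Myh4, Myh1, Des and Tnnt3. Eif4e, Eif4ebp3, Rragc, Foxo1, Foxo3, Trp53, Tfeb, Tfe3, Mitf, Sgk1, Tsc22d3, Cebpd and Glul were named after their values were seen, beside a member.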

Additional observations from a re-analysis of the deposited data

Results flagged for a closer look

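In 48 groups of 4 libraries (10 genes and 2 pooled measures in 4 groups), 6 had 1 library far from the other 3, measured by Dixon's ratio of its gap to the group's range; chance alone gives this in about 1 in 20 groups. Ddit4 in Tg female 4 was 66.6 CPM against 10.4 to 11.9 CPM in the other Tg females. Sesn2 in WT male 1 was 4.55 CPM against 2.77 to 2.94 CPM, and the Sesn2 share of the sestrins was 15.4% in that library against 8.78 to 9.80% in the other WT males; its summed adipocyte markers were 3238 CPM, and their part was not tested. Sesn1 in WT male 4 was 34.2 CPM against 27.6 to 28.7 CPM, and Sesn3 in the same library was 3.01 CPM against 3.65 to 3.76 CPM. Mtor in WT male 3 was 51.0 CPM against 54.9 to 55.3 CPM.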

How the results depend on the processing

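No paired analysis was possible because the labels give no replicate number, and numbers within a group follow accession order only. Of 260 recomputed averaged values of the 10 members, 258 kept direction and call. The exceptions were Sesn3, called without WT female 1, and Eif4ebp2, which ranged from -0.06 to 0.01 when single libraries were left out. Leaving out single libraries gave 5 to 6 members called on average, 4 to 5 in females, 4 to 5 in males, 0 for the difference between the sexes and 2 to 4 for sex in WT; without the 3 libraries highest in adipocyte markers the last count was 2. The cause was not tested. The difference in Sesn2 share was 44.0 to 46.2 percentage points and that in the log2 4E-BP ratio 1.3 to 1.38 when single libraries were left out, 41.1 and 1.01 without length scaling, and 47.2 and 1.46 without the 3 highest, all with the same direction and call. Without length scaling the log2 ratio itself was 0.324 in WT and 1.33 in Tg, in place of 1.13 and 2.48.

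Signs turned for the following uncalled log2 values, with the widest moves for Fabp4 (-0.80 with all libraries) and Ddit4 in females (0.08). Without the 2 adipocyte-rich libraries (WT female 2 and WT male 1), sex in WT gave -0.02 for Sesn2, -0.09 for Sesn3 and 0.01 for Mtor, the difference between the sexes 0.05 for Sesn3, -0.03 for Mtor and 0.08 for Eif4ebp1, and genotype 0.27 for Fabp4 and 0.12 for Pmp22. Without the 3 highest, values were -0.02 for Ddit4 and -0.05 for Eif4ebp2 in females, -0.15 for the Mtor difference between the sexes, 0.13 for Mtor and -0.08 for Rragd for sex in WT, 0.82 for Fabp4 and 0.16 for Pmp22. With the adipocyte covariate, sex in WT gave 0.00 for Sesn3 and -0.04 for Rragd. Leaving out single libraries, sex in WT ranged from -0.12 to 0.17 for Sesn2, -0.09 to 0.22 for Sesn3, -0.15 to 0.01 for Mtor and -0.05 to 0.13 for Rragd. The difference between the sexes ranged from -0.25 to 0.05 for Sesn3, -0.03 to 0.13 for Mtor and -0.16 to 0.14 for Eif4ebp1. In females, Ddit4 ranged from -1.08 to 0.61 and Mtor from -0.04 to 0.12, and averaged values from -1.13 to 0.02 for Fabp4 and -0.16 to 0.09 for Pmp22. The lowest estimated count behind a member was 37, for Sesn2 in WT female 3.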
